A study of Mus musculus with 5 samples.

Results

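Ccl3, Ccl4 and Ccl5 are chemokines, and Ccr1 and Ccrl2 are receptors of the same seven-helix family. The 5 genes were taken by symbol from the 32285 rows of the count matrix, and all 5 were found. The question was which cells of the injured mouse kidney carried transcripts of the ligands and which carried those of the receptors. Kidneys of male C57BL/6J mice, aged 6 to 8 weeks by the study's methods, were studied 1, 3, 14 and 28 days after unilateral ischemia-reperfusion (UIR), an operation that stops and then restores the blood flow of a kidney, and after a sham operation. Each of the 5 conditions was 1 sample of dissociated kidney from 3 mice. A single matrix of unique molecular identifiers (UMIs, counted RNA molecules) holds all 5 libraries, told apart by a barcode suffix of 1 to 5. The labels tie no suffix to a condition, and the study's methods describe a merge of more matrices than there are suffixes, so a suffix is called a library here without knowing whether it holds several. The libraries are therefore named by suffix alone and pooled as 1 sample, no day is compared with another or with sham, and no test between conditions was possible.

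Ccl3 and Ccl4, also called macrophage inflammatory proteins 1-alpha and 1-beta, and Ccl5, also called RANTES, attract leukocytes to inflamed tissue. Ccl3 and Ccl5 act through Ccr1, among other receptors, so that a cell's response depends on which receptors it bears. Ccrl2 is an atypical receptor that binds chemerin and presents it to nearby cells without signalling itself. Its name comes from its sequence likeness to the chemokine receptors, and it is not an established receptor of Ccl3, Ccl4 or Ccl5.

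In the mm10 genome (GENCODE vM21) the 3 ligand genes lay together on chromosome 11. Ccl3 (ENSMUSG00000000982) was at chr11:83647844-83649355 on the minus strand and Ccl4 (ENSMUSG00000018930) at chr11:83662584-83664683 on the plus strand, with 13228 bases between them. Ccl5 (ENSMUSG00000035042) was at chr11:83525778-83530518 on the minus strand. The receptors were on chromosome 9, Ccr1 (ENSMUSG00000025804) at chr9:123962124-123968692 and Ccrl2 (ENSMUSG00000043953) at chr9:111054486-111057519, both on the minus strand. None of the 5 overlapped another annotated gene.

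Promoters of both receptor genes are shown because the classes with the highest level of each were the same, as described in the receptor results. The sequences are RefSeq's for GRCm38.p6, from 250 bases before the transcription start to 50 after it, on the coding strand, at chr9:123968643-123968942 for Ccr1 and chr9:111057469-111057768 for the outermost of the 3 Ccrl2 starts. Capitals mark a match to the NF-kB consensus.
Ccr1: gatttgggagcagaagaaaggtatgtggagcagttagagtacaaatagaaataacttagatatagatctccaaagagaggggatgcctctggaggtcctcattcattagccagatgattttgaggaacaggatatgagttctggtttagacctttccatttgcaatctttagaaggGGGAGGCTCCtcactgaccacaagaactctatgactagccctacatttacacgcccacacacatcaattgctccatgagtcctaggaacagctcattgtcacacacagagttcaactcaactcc
Ccrl2: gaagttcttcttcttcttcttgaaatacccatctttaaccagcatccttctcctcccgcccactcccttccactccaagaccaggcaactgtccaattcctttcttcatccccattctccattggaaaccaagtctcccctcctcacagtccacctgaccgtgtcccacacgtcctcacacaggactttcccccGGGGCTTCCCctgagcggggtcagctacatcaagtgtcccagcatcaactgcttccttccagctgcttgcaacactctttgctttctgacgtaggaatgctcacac
The match began 74 bases before the start in Ccr1 and 56 bases before it in Ccrl2, and the windows of the other 2 Ccrl2 starts held none. On either strand, 8.46% of 32851 promoters of this length held the NF-kB consensus. No match to the AP-1 letters TGANTCA (7.81% of promoters), the C/EBP letters TTGCNNAA (10.8%) or TATAAA (13.6%) was in these windows, nor in that of Ccl3, which also had no NF-kB match. A match is a description of letters and not a site.

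Of 70196 called barcodes, 57546 were kept, with 8227 to 18967 cells and 51064171 to 94808109 UMIs a library, and the median cell held 4619 UMIs. Barcode sequences recur across libraries by chance, and 350 of them were in more than 1 library, which touched 701 kept cells. The labels give the cell type as goblet cell, but the goblet genes Muc2, Spdef, Clca1, Fcgbp and Zg16 held 0 to 0.135 CPM (UMIs of a gene per 1000000 UMIs) over all kept cells, against 2972 for the proximal tubule transporter Slc34a1. Cells were placed in classes by counting how many of 8 markers of a type had a UMI, with no gene of this report among the markers. Proximal tubule-like cells were 45711, or 79.4%, and the leukocyte classes together held 4498 cells, or 7.82%. The list of Havcr1, Krt20, Sox9, Vcam1, Krt18, Clu, Tnfrsf12a and Plaur was meant for injured epithelium, but uroplakin genes of the urothelium led its 424 cells, which are called Havcr1-list cells here. A level is the CPM of all UMIs of a class, with an exact 95% Poisson interval, shares of cells have exact binomial intervals, and both cover counting error only. Because RNA from broken cells floats in the droplets, the level in proximal tubule-like cells is given for comparison, and the level in barcodes too shallow to be cells, which was mostly higher, is given at the end. Whether proximal tubule-like cells made any of these transcripts was not tested.

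Leukocytes held most transcripts of all 5 genes. Of UMIs in gated cells, the leukocyte classes held 93.0% for Ccl3, 92.8% for Ccl4, 89.5% for Ccl5, 92.6% for Ccr1 and 93.7% for Ccrl2. The classes that led were not the same for each gene. Mononuclear phagocyte-like cells (monocytes and macrophages) held 59.2% of the gated UMIs of Ccl3 and 72.3% of those of Ccl4, and C1q macrophage-like cells alone, 1.62% of kept cells, held 51.6% and 65.6%. T-like and NK-like cells held 58.8% and 15.0% for Ccl5, and 54 mature dendritic-like cells held another 10.2%. Neutrophil-like cells held 58.8% for Ccr1 and 55.5% for Ccrl2. Cells left ungated, 9.04% of kept cells, held 17.1% of all UMIs of Ccl4 and 18.7% to 22.7% of those of the other 4 genes. Of these 5200 cells, 1014 had leukocyte markers with too many tubule transcripts and 972 had as many markers of a kidney list, and these 2 sets held 1971 and 2068 of the 4926 ungated Ccl5 UMIs. For Ccl3 they held 494 and 363 of the 2098 ungated UMIs. The 2393 cells with under 3 markers of any list held 878.

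**Figure D1:**
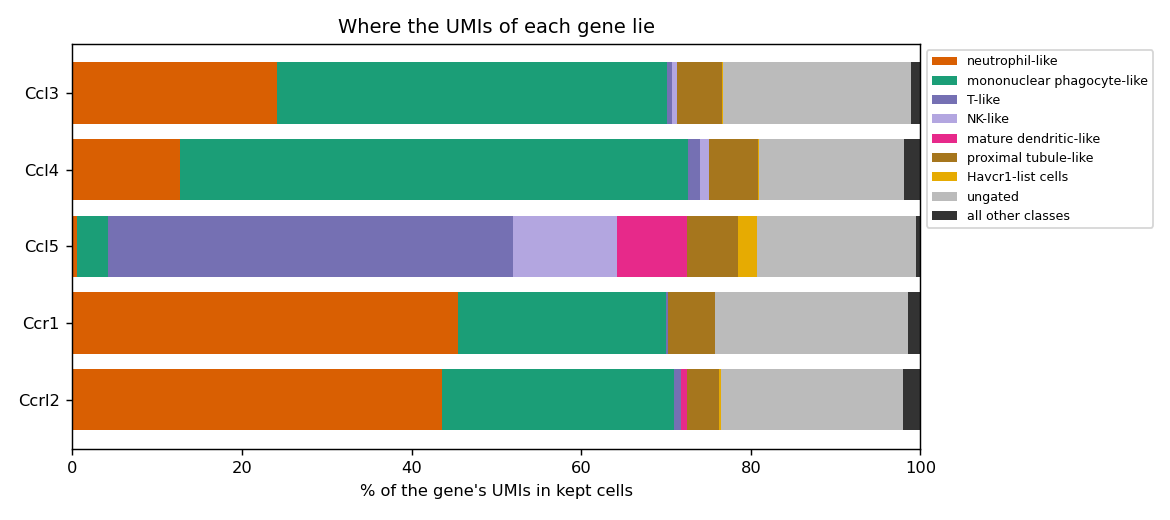
The bars give, for each gene, the percent of its UMIs in kept cells that each class held. Mononuclear phagocyte-like cells hold the longest part for Ccl3 and Ccl4, T-like cells for Ccl5 and neutrophil-like cells for Ccr1 and Ccrl2; ungated cells hold 17.1% to 22.7%.

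Ccl3 was highest in neutrophil-like cells among classes of at least 50 cells, at 1230 CPM (1180 to 1282). C1q macrophage-like cells followed at 760.5 CPM (736.5 to 785.1), infiltrating macrophage-like cells at 479 CPM (427 to 536), NK-like cells at 245 CPM (186 to 316) and classical monocyte-like cells at 155 CPM (136 to 177). Of the 137 infiltrating macrophage-like cells, 3 held 160 of the 308 Ccl3 UMIs, so that level and its rank rested largely on few cells. Proximal tubule-like cells were at 1.90 CPM (1.74 to 2.07). By library, the neutrophil-like level was 1343 CPM in library 1, 2268 in library 2, 215 in library 3 and 844 in library 4, and library 5 had 2 such cells with 0 Ccl3 UMIs. The C1q macrophage-like level was 968, 683, 663, 472 and 2361 CPM in libraries 1 to 5. Library 2 was thus the highest for neutrophil-like cells and library 5 for C1q macrophage-like cells, and the ranges of the 2 classes overlapped. Library 2 held 1859 of the 2281 Ccl3 UMIs of neutrophil-like cells. Per cell, without allowing for depth, the order differed from that by CPM. C1q macrophage-like cells held 4.08 Ccl3 UMIs a cell, infiltrating macrophage-like cells 2.25 and neutrophil-like cells 1.75. No Ccl3 UMI was found in 618 thick ascending limb-like, 298 distal convoluted tubule-like or 346 endothelial-like cells, where 3 UMIs would have made 0.846, 1.88 and 1.68 CPM. The 3 basophil-like cells, too few to rank, held 55 Ccl3 and 159 Ccl4 UMIs.

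Ccl4 was highest in C1q macrophage-like cells, at 2603 CPM (2559 to 2648). Neutrophil-like cells were at 1641 CPM (1583 to 1700), NK-like cells at 1025 CPM (900 to 1162), classical monocyte-like cells at 687 CPM (646 to 730.0), conventional dendritic-like cells at 464 CPM (408 to 525) and T-like cells at 144 CPM (130 to 160). Proximal tubule-like cells were at 5.21 CPM (4.94 to 5.49). Per cell, without allowing for depth, the order again differed from that by CPM. C1q macrophage-like cells held 13.96 Ccl4 UMIs a cell and conventional dendritic-like cells 2.81. Classical monocyte-like cells held 2.74, neutrophil-like cells 2.33 and NK-like cells 1.77. In libraries 1 to 5 the C1q macrophage-like level was 3424, 2224, 2676, 1216 and 8331 CPM, and in libraries 1 to 4 the neutrophil-like level was 1644, 2931, 598 and 429 CPM. C1q macrophage-like cells were above neutrophil-like cells in libraries 1, 3 and 4 and below them in library 2. NK-like cells kept to a narrower range, between 669 and 1528 CPM in the 4 libraries with at least 20 such cells. Mature dendritic-like cells had no Ccl4 UMI, where 3 would have made 11.2 CPM.

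Ccl3 and Ccl4 transcripts in neutrophil-like cells came from a minority of cells. A Ccl3 UMI was in 26.1% (341 of 1305) of neutrophil-like cells and in 49.7% (463 of 932) of C1q macrophage-like cells, at median depths of 1278 and 3844 UMIs, and in 0.354% of proximal tubule-like cells, at 5111. Cells with at least 1000 UMIs were then thinned to 1000 UMIs, and shallower cells were left out, here and wherever thinning is named. This kept 993 neutrophil-like and 839 C1q macrophage-like cells. The shares were 25.1% and 32.7% in these 2 classes and 0.123% in proximal tubule-like cells. The 131 neutrophil-like cells with the most Ccl3, 10% of the class by number, held 84.5% of its Ccl3 UMIs, and the top 131 for Ccl4 held 89.9%. In C1q macrophage-like cells the top 94 held 60.4% and 57.8%. Within libraries the top 10% of neutrophil-like cells held 77.0% (library 2), 87.7% (library 3) and 78.7% (library 4) for Ccl3, and those of C1q macrophage-like cells held 48.4% to 69.9%. In cells thinned to 1000 UMIs the Ccl3 shares were 83.5% and 66.6%, and the Ccl4 shares 86.8% and 60.7%. The receptors were spread more evenly over neutrophil-like cells, where the top 131 held 39.7% of Ccr1 and 45.6% of Ccrl2 UMIs.

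**Figure D2:**
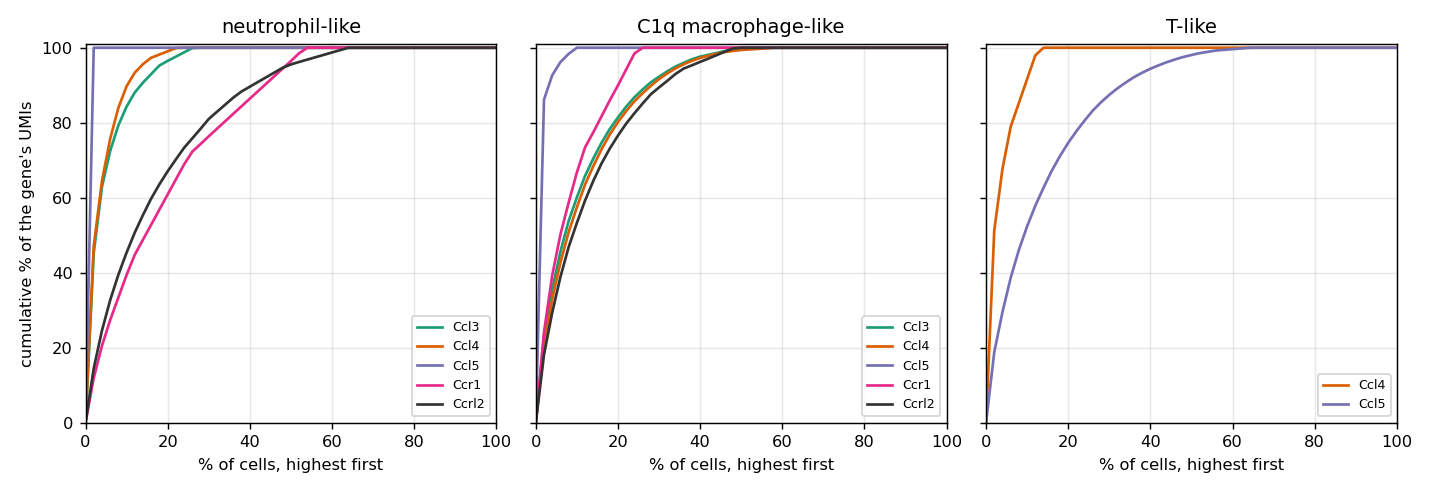
Each line gives the cumulative percent of a gene's UMIs in a class against the percent of its cells, ranked from the cell with the most UMIs, for genes with at least 100 UMIs in the class. In neutrophil-like cells the Ccl3 and Ccl4 lines reach 84.3% and 89.7% at 10% of the cells, while those of Ccr1 and Ccrl2 are at 39.4% and 45.4%.

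The cells with Ccl3 were often the cells with Ccl4. In thinned neutrophil-like cells, Ccl3 was found in 56.5% (49.7 to 63.1) of the 223 cells with a Ccl4 UMI and in 123 of the 770 cells without one (13.5 to 18.8%). The same shares were 64.6% and 22.1% within library 2, and 35.9% and 7.14% within library 3. In C1q macrophage-like cells they were 54.0% (49.0 to 58.9) of 404 cells and 12.9% (9.87 to 16.4) of 435 cells. Ccl3 also went with Ccrl2 in neutrophil-like cells, in 34.5% (30.7 to 38.4) of the 606 cells with a Ccrl2 UMI and 10.3% (7.49 to 13.8) of the 387 without. Within libraries 2, 3 and 4 these shares were 41.6% and 18.4%, 19.9% and 5.36%, and 36.7% and 15.8%. In C1q macrophage-like cells the shares by Ccrl2 were 48.2% (41.6 to 54.95) of 226 cells and 26.9% (23.4 to 30.6) of 613 cells. The share with a Ccrl2 UMI was the higher one in each library, though only 5 such cells were in library 5. With Clec4e, the gene of the Mincle receptor that the study was built on, Ccl3 was found in 28.9% (25.4 to 32.6) of 626 neutrophil-like cells with and 18.5% (14.7 to 22.9) of 367 cells without a Clec4e UMI; within libraries 2, 3 and 4 these were 39.2% and 28.5%, 12.7% and 10.4%, and 35.7% and 21.3%. In C1q macrophage-like cells the shares were 23.5% (10.8 to 41.2) of 34 cells and 33.0% (29.8 to 36.4) of 805. Ccr1 by Clec4e was found in 48.9% (44.9 to 52.9) and 45.8% (40.6 to 51.0) of neutrophil-like, 20.6% (8.70 to 37.9) and 6.09% (4.54 to 7.97) of C1q macrophage-like, and 20.8% (13.2 to 30.3) and 10.4% (7.07 to 14.6) of classical monocyte-like cells.

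Ccl5 followed a different order, with lymphocytes and mature dendritic-like cells at the top. NK-like cells were at 13541 CPM (13076 to 14017), and 136 of 137 cells had a UMI. Mature dendritic-like cells, marked by Fscn1 and Il4i1, were at 8118 CPM (7780 to 8466) and T-like cells at 5230 CPM (5139 to 5322). No other gated class was above 190.3 CPM, and proximal tubule-like cells were at 5.94 CPM (5.65 to 6.24). In libraries 1 to 4 NK-like cells were at 15897, 18853, 12184 and 10208 CPM and T-like cells at 4125, 6846, 3711 and 3415 CPM. NK-like cells were above T-like cells in each of the 4, with a pooled log2 ratio of 1.37 (1.32 to 1.43), and no NK-like library overlapped a T-like one. Mature dendritic-like cells were at 6295, 10197, 5174 and 3951 CPM, from 13, 28, 9 and 4 cells.

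Within T-like cells, Ccl5 was higher in cells with a Cd8a or Cd8b1 UMI and no Cd4 UMI than in the reverse. Another 603 of the 1110 T-like cells had UMIs of both kinds or of neither and were not compared. They held 2969 Ccl5 UMIs. The 345 CD8 T-like cells were at 10137 CPM (9930 to 10347) and the 162 CD4 T-like cells at 1213 CPM (1107 to 1325), a log2 ratio of 3.06 (2.93 to 3.20). It was 3.88 in library 1 and 2.90 in library 2, the libraries with at least 20 cells of both. Ccl4 showed the same order at 285 and 19.9 CPM, with a log2 ratio of 3.84 (2.84 to 5.07). The CD4 T-like level came from 8 UMIs. In barcodes too shallow to be cells Ccl4 was at 32.4 and 58.2 CPM in libraries 1 and 2, so that level was not shown to be above free RNA. In thinned T-like cells, 97.8% (89 of 91) of those with a Ccl4 UMI had a Ccl5 UMI, against 56.3% (526 of 934) of those without. In mature dendritic-like cells, by contrast, Ccl5 stood alone among the ligands, with 2177 Ccl5 UMIs, 1 Ccl3 UMI and 0 Ccl4 UMIs.

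**Figure D3:**
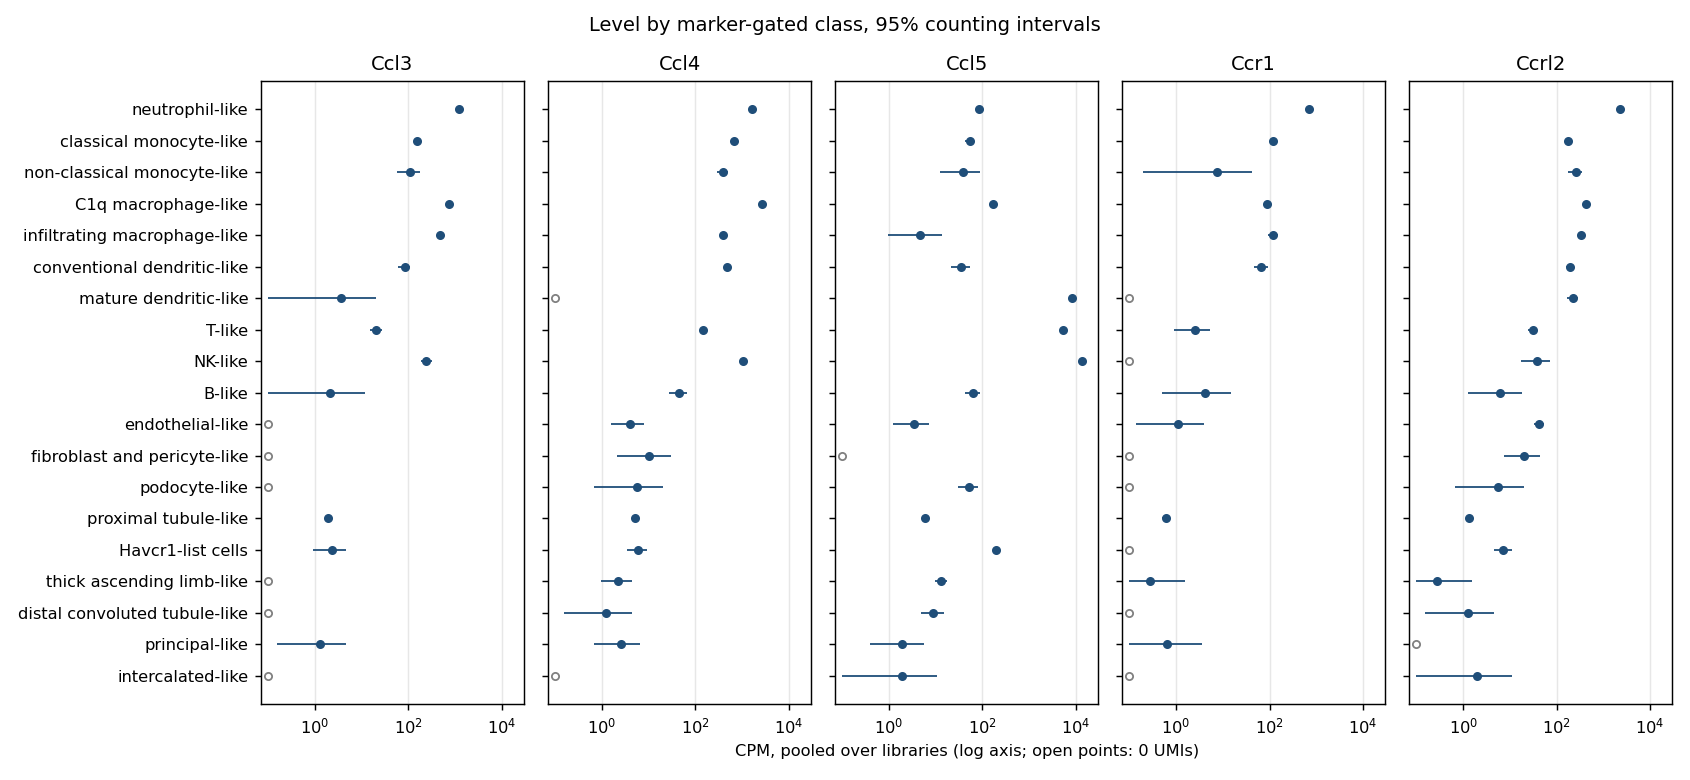
Each panel plots the pooled level of a gene in CPM, on a log axis, in 19 classes of at least 50 cells, with 95% Poisson intervals, cut at 0.1 CPM where they reach lower, and open points for classes with no UMI. Ccl3, Ccl4, Ccr1 and Ccrl2 are highest in myeloid classes, and Ccl5 in NK-like, mature dendritic-like and T-like cells.

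In several other classes most Ccl5 was held by few cells, and their T and NK markers differed by class. Cells with at least 10 Ccl5 UMIs, a limit set after the values were seen, held 76.3% to 89.4% of the Ccl5 UMIs of neutrophil-like, classical monocyte-like, C1q macrophage-like, B-like and Havcr1-list cells. They held 50.2% of those of proximal tubule-like cells, and no conventional dendritic-like or podocyte-like cell had as many. A UMI of the 16 T-like and NK-like markers was in 4 of 4 such neutrophil-like cells, 3 of 4 classical monocyte-like cells, 1 of 1 B-like cells and 22 of 26 proximal tubule-like cells. It was in 1 of 13 such C1q macrophage-like cells, 2 of 9 Havcr1-list cells, 0 of 2 thick ascending limb-like cells and 0 of 34 mature dendritic-like cells. In cells of these classes with under 10 Ccl5 UMIs, such a UMI was in 0% to 8.21%. The summed T and NK marker level in the cells with at least 10 was 3043 CPM in neutrophil-like, 1672 in proximal tubule-like and 40.8 in C1q macrophage-like cells, against 8766 in T-like and NK-like cells with as many. Whether these droplets held 2 cells was not tested.

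The Havcr1-list cells had 577 Ccl5 UMIs, or 190.3 CPM (175 to 206), in 25 of 424 cells, and 3 cells held 67.4% of them. The level was 482, 223, 107 and 27.4 CPM in libraries 1 to 4, with 17 cells in library 4, and all were above the proximal tubule-like level of the same library. The 1 Havcr1-list cell of library 5 had no Ccl5 UMI. Split after the values were seen, 123 cells with a Havcr1 UMI, a marker of injured proximal tubule, and no UMI of Upk1a, Upk1b, Upk3a or Psca were at 519.6 CPM (475 to 568), with Ccl5 in 16 of them and 455 of their 493 UMIs in 6 cells. The 225 cells with neither marker were at 60.5 CPM (48.2 to 75.0). Another 60 cells with at least 2 UMIs of those urothelial genes were at 1.70 CPM (0.0432 to 9.50). The most Ccl5 UMIs in a Havcr1-list cell were 213, against 205 in a T-like, 263 in a C1q macrophage-like and 288 in a mature dendritic-like cell. These counts are not scaled to depth. Cells with at least 10 Ccl5 UMIs had a median of 10058 UMIs in Havcr1-list and 1943 in T-like cells. Ccl3 and Ccl4 were at 2.31 and 5.94 CPM in Havcr1-list cells, beside 1.90 and 5.21 CPM in proximal tubule-like cells.

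Ccr1 was highest in neutrophil-like cells, followed by macrophage-like and classical monocyte-like cells. Neutrophil-like cells were at 699 CPM (661 to 738), infiltrating macrophage-like cells at 120 CPM (94.5 to 150), classical monocyte-like cells at 117 CPM (100.3 to 136), C1q macrophage-like cells at 89.6 CPM (81.5 to 98.3) and conventional dendritic-like cells at 66.8 CPM (46.8 to 92.5). The neutrophil-like level was 831, 1058, 328 and 599.6 CPM in libraries 1 to 4, all above every other class in any library with at least 20 of its cells (up to 166 CPM). Infiltrating macrophage-like and classical monocyte-like cells did not differ beyond their intervals, and 55 non-classical monocyte-like cells held 1 Ccr1 UMI, 7.69 CPM (0.195 to 42.9). Lymphocytes held few Ccr1 UMIs. The 1110 T-like cells had 6, or 2.50 CPM (0.916 to 5.44) beside 0.596 CPM (0.507 to 0.696) in proximal tubule-like cells, and 137 NK-like cells held none, where 3 would have made 12.7 CPM. Ccr1 in free RNA was at 1.85 and 14.15 CPM in libraries 1 and 2, which held 488 and 415 of the T-like cells. The T-like level was therefore not shown to be above free RNA. A Ccr1 UMI was in 53.5% of neutrophil-like and 24.8% of C1q macrophage-like cells, in 47.7% and 6.67% after thinning, and in 0.295% of proximal tubule-like cells, 0.0887% after thinning.

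Ccrl2 was also highest in neutrophil-like cells, at 2217 CPM (2150 to 2286). C1q macrophage-like cells were at 414 CPM (396 to 432), infiltrating macrophage-like cells at 333 CPM (290 to 380.5), non-classical monocyte-like cells at 254 CPM (175 to 356), mature dendritic-like cells at 220.0 CPM (167 to 284), conventional dendritic-like cells at 191 CPM (156 to 232) and classical monocyte-like cells at 171 CPM (151 to 194). The neutrophil-like level was 1874, 3448, 912 and 2246 CPM in libraries 1 to 4, all above the C1q macrophage-like range of 135 to 567 CPM. Outside leukocytes Ccrl2 was highest in endothelial-like cells, at 42.5 CPM (33.5 to 53.2) against 1.35 CPM (1.21 to 1.49) in proximal tubule-like cells. Fibroblast and pericyte-like cells followed at 20.1 CPM (7.39 to 43.8), from 6 UMIs, and the 2 intervals overlapped. Of the 74 fibroblast and pericyte-like cells, 33 and 26 were in libraries 1 and 2, where free RNA was at 5.25 and 38.8 CPM. Their level was thus not shown to be above free RNA. In the 3 libraries with at least 20 endothelial-like cells the level was 43.6, 43.9 and 35.2 CPM, while free RNA in the same libraries was at 5.25, 38.8 (31.4 to 47.4) and 5.05 CPM, so that in library 2 the endothelial-like level was not above free RNA beyond counting error. No more than 4 Ccrl2 UMIs were in 1 endothelial-like cell, and 60 of 346 had at least 1. In these cells Ccr1 held 2 UMIs and Ccl3 none.

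**Figure D4:**
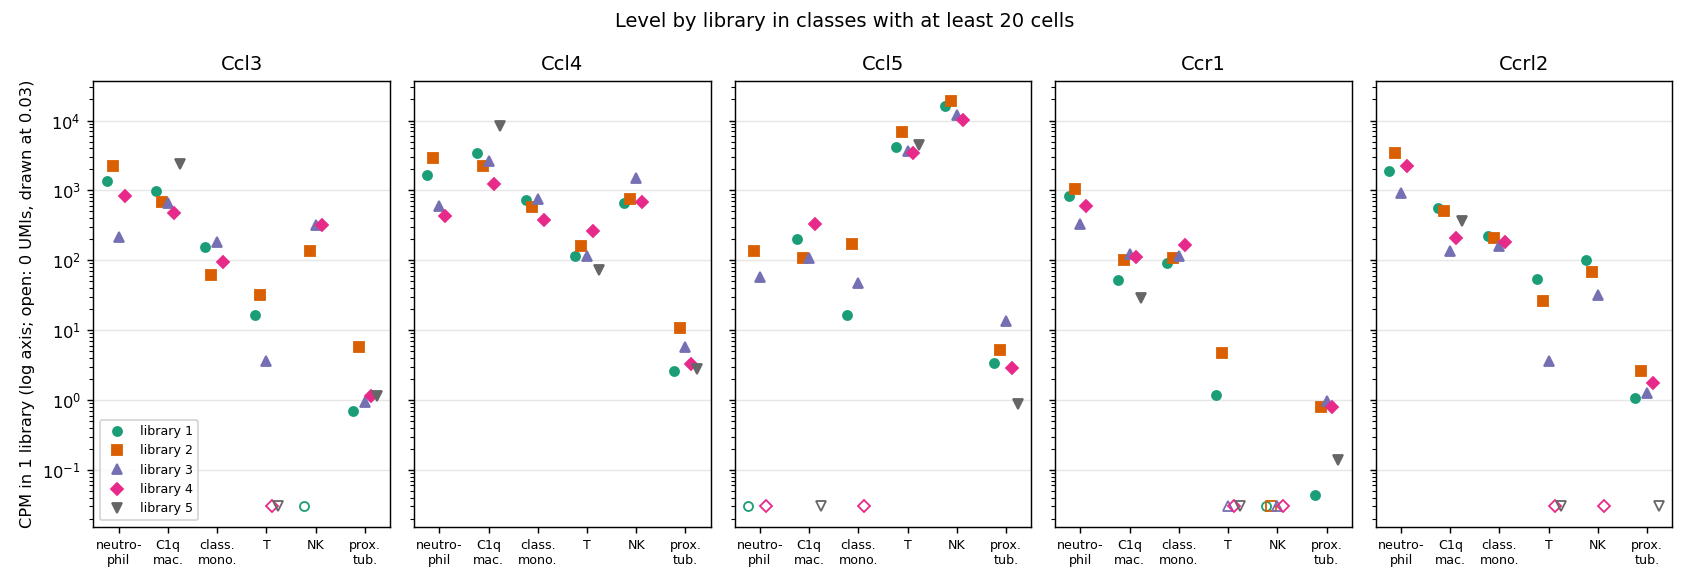
Points give the level of each gene in CPM, on a log axis, in each library with at least 20 cells of the class, with open points, drawn at 0.03 CPM, for 0 UMIs. For Ccr1 and Ccrl2 the neutrophil-like points lie above all those of the other classes shown, and for Ccl3 and Ccl4 the neutrophil-like and C1q macrophage-like points overlap.

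Neutrophil-like cells were compared with all 1501 mononuclear phagocyte-like cells (the classes of monocytes and macrophages). The pooled log2 ratio was 1.04 (0.97 to 1.11) for Ccl3, -0.27 (-0.32 to -0.21) for Ccl4, -0.63 (-0.88 to -0.39) for Ccl5, 2.86 (2.72 to 2.99) for Ccr1 and 2.65 (2.58 to 2.72) for Ccrl2. Per cell, without allowing for depth, neutrophil-like cells held 0.993 Ccr1 and 3.15 Ccrl2 UMIs, against 0.468 and 1.72 in mononuclear phagocyte-like cells. For Ccl3, Ccl4 and Ccl5 these were 1.75, 2.33 and 0.12 UMIs a cell, against 2.90, 9.56 and 0.63. Within libraries 1 to 4 the Ccr1 ratio was 3.91, 3.37, 1.53 and 2.29, and the Ccrl2 ratio 1.80, 2.86, 2.63 and 3.39, so both were higher in neutrophil-like cells in 4 of 4 libraries. Ccl3 was at 0.58, 1.89, -0.76 and 0.94, and Ccl4 at -0.95, 0.70, -1.28 and -1.24. Ccl5 was at 0.46 (0.12 to 0.79) in library 2 and -0.18 (-0.70 to 0.32) in library 3, and neutrophil-like cells had no Ccl5 UMI in libraries 1 and 4. Without library 2 the pooled Ccl3 ratio was -0.54, and the Ccl4 ratio was -1.73 without library 2, 0.05 (-0.01 to 0.11) without library 1 and 0.11 without library 3, so the direction for Ccl3 and for Ccl4 changed when 1 library was left out, while Ccr1 and Ccrl2 were at 2.14 and 2.05 without library 2. Without the rule that a leukocyte list must beat the kidney lists, the Ccl4 ratio was 0.30. At least 2-fold higher were 3 of the 5 genes, where the share of all 7140 genes with at least 100 UMIs was 12.2%, and at least 2-fold lower were 0 of 5, against 22.7%. Ccl3 was just past 2-fold, and its ratio was between 0.65 and 0.99, under 2-fold, in 6 other settings.

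T-like and NK-like cells together were compared with the same mononuclear phagocyte-like cells. The Ccl5 log2 ratio was 5.52 (5.42 to 5.62), and 4.63, 6.21, 6.47 and 4.40 within libraries 1 to 4. It was 6.25 (6.16 to 6.34) without the rule on kidney lists. In library 5 the mononuclear phagocyte-like cells had no Ccl5 UMI. The other 4 genes were lower, with log2 ratios of -3.88 (-4.18 to -3.61) for Ccl3, -3.14 (-3.26 to -3.02) for Ccl4, -5.41 (-6.86 to -4.28) for Ccr1 and -3.49 (-3.83 to -3.18) for Ccrl2, and all 4 were lower in libraries 1 and 2. In libraries 1 to 5 the ratio was -5.81, -4.08, -2.13, -2.41 and -5.62 for Ccl3. For Ccl4 it was -4.58, -3.29, -1.63, -1.45 and -5.63. In T-like and NK-like cells Ccr1 had 0 UMIs in libraries 3 to 5 and Ccrl2 in libraries 4 and 5, which gave no ratio there, and in library 5 the mononuclear phagocyte-like cells held 2 Ccr1 UMIs, too few to compare. Thus 1 of the 5 genes was at least 2-fold higher, against 12.2% of 7639 genes, and 4 were at least 2-fold lower, against 17.6%.

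Siglecf marks a neutrophil state described in inflamed and fibrotic tissue. Among neutrophil-like cells, 130 had a Siglecf UMI and 1175 had none, at median depths of 1335 and 1273 UMIs. At such depths a cell without a Siglecf UMI may still carry the transcript. The study lists Ccl3, Ccl4 and Siglecf as high in the same neutrophil cluster, and Retnlg, S100a8 and S100a9 as high in a different cluster. The latter genes were among the neutrophil-like markers, and whether the gate missed cells for this was not tested. Ccl3 was at 1257 and 1227 CPM, a log2 ratio of 0.04 (-0.17 to 0.23), Ccl4 at 1639 and 1641 CPM, 0.00 (-0.18 to 0.17), and Ccr1 at 706 and 698 CPM, 0.02 (-0.25 to 0.28). Ccr1 was at -0.25 (-0.57 to 0.07) within library 2 and -0.13 (-0.80 to 0.49) within library 4, and at -0.32 (-0.61 to -0.05) pooled without library 3. Within library 2 (70 and 511 cells) the ratio was -0.43 (-0.66 to -0.21) for Ccl3 and -0.28 (-0.47 to -0.09) for Ccl4. Within library 4 (39 and 145 cells) it was 0.46 (-0.03 to 0.94) for Ccl3, which includes 0, and 1.00 (0.35 to 1.64) for Ccl4. The pooled Ccl3 ratio was 0.84 without library 2 and -0.40 without library 3. It was 0.35 (0.14 to 0.55) with at least 500 genes a cell and 0.28 (0.07 to 0.48) with 4 of 8 markers. After thinning to 1000 UMIs it was -0.20 (-0.47 to 0.06).

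Ccrl2 was higher in Siglecf-positive cells, at 3597 CPM (3331 to 3878) against 2061 CPM (1993 to 2131). The log2 ratio was 0.80 (0.68 to 0.92), with 0.55 in library 2 and 0.66 in library 4, and libraries 1 and 3 had 4 and 17 Siglecf-positive cells. A Ccrl2 UMI was in 77.3% of Siglecf-positive and 59.0% of Siglecf-negative cells after thinning. Clec4e was at 1836 and 1410 CPM, a log2 ratio of 0.38 (0.21 to 0.54), with 0.37 (0.16 to 0.57) in library 2 and 0.10 (-0.31 to 0.49) in library 4. Ccl5 had 1 UMI in the Siglecf-positive and 155 in the Siglecf-negative cells (-4.13, -9.45 to -1.63), of which 4 cells that also held T or NK marker UMIs had 119. The interval included 0 without cells of a second lineage (-1.21, -6.58 to 1.44) and without cells holding T or NK list UMIs (-1.37, -6.74 to 1.26). Counted at 2-fold, 0 of 5 genes were higher, against 3.62% of 2236 genes, and 1 of 5, this Ccl5 value, was lower, against 4.87%.

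**Figure D5:**
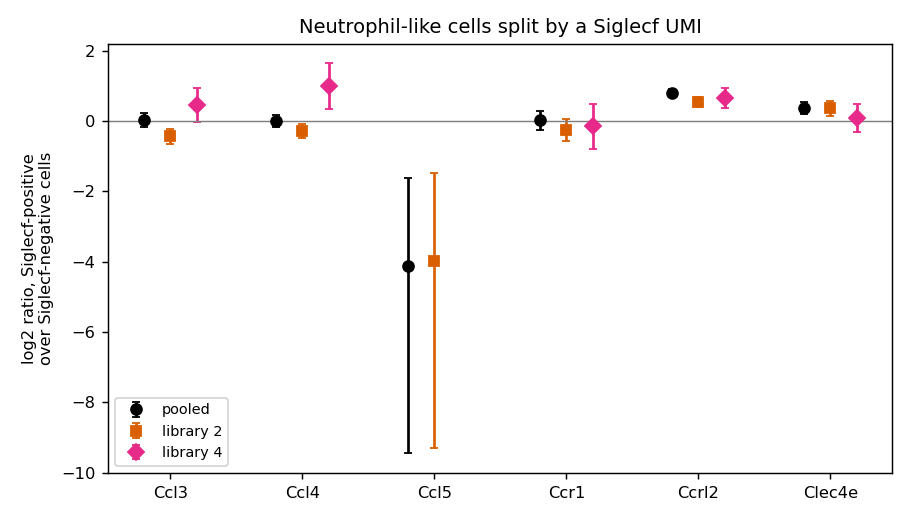
Points are log2 ratios of CPM, Siglecf-positive over Siglecf-negative neutrophil-like cells, pooled and within libraries 2 and 4, with exact 95% counting intervals. Ccrl2 lies above 0 in all 3, Ccl3 and Ccl4 lie below 0 in library 2 and above it in library 4, where the Ccl3 interval includes 0, and Ccl5 has 1 UMI in the positive cells.

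Ccr3, the receptor of eosinophils and basophils, was at or below 6.24 CPM in each class but the 3 basophil-like cells, which had 1 UMI.

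Of the other Ccl chemokines in the pathway list, Ccl6 was at 2980 CPM in infiltrating macrophage-like, 1500 in neutrophil-like, 1348 in classical monocyte-like and 1148 in C1q macrophage-like cells. Ccl9 was at 709, 51.8, 569 and 493 CPM in the same order, and Ccl7 at 1044, 5.93, 91.0 and 378 CPM. Ccl8 and Ccl12 were highest in C1q macrophage-like cells, at 132 and 317 CPM. Ccl11 was at 26.8 CPM (8 UMIs) in fibroblast and pericyte-like cells and at most 0.664 CPM in the other classes.

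Rarres2, the gene of chemerin, which Ccrl2 binds, was at 443 CPM (371 to 525) in fibroblast and pericyte-like, 59.0 CPM (58.1 to 60.0) in proximal tubule-like and 42.5 CPM (33.5 to 53.2) in endothelial-like cells, and at 4.85 CPM in neutrophil-like cells. Cmklr1, the signalling chemerin receptor, was at 24.8 CPM in C1q macrophage-like and 21.8 CPM in infiltrating macrophage-like cells, and at 0.539 CPM (1 UMI) in neutrophil-like cells. The scavenging receptor Ackr2, of lymphatic endothelium, had 8 UMIs in endothelial-like cells, 4.48 CPM.

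Over the pathway list of 22 genes, 16 had at least 100 UMIs in the comparison of neutrophil-like with mononuclear phagocyte-like cells. Of these, 2 (beside 12.2% of all genes), Cd44, a surface receptor of hyaluronan, and Nfkbia, the NF-kB inhibitor that NF-kB itself induces, were at least 2-fold higher, and 8 (beside 22.7%) were at least 2-fold lower, among them the ligands Ccl7 and Ccl9. The median log2 ratio was -1.25, beside -0.26 over all 7140 genes. In T-like and NK-like cells 0 were higher (beside 12.2%) and 11 of 16 lower (beside 17.6%), with a median of -2.07 beside 0.06. In Siglecf-positive against Siglecf-negative cells 9 genes were counted, of which 0 were higher (beside 3.62%) and 1, Ccl6, was lower (beside 4.87%, at 578 against 1604 CPM), with a median of -0.24 beside 0.15.

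Over 19 classes, the genes whose log2(CPM + 1) profile was most like that of each gene, by Pearson's r, were Apobr, Itgam and Fcgr3 for Ccl3 (0.956, 0.942 and 0.942), Fcgr3, Tnfaip8l2 and Ccl3 for Ccl4 (0.935, 0.935 and 0.931) and Kdm2b, AW112010 and Tnfrsf18 for Ccl5 (0.870, 0.865 and 0.859). For Ccr1 they were Clec4n, Gpr84 and A530064D06Rik (0.987, 0.953 and 0.948), and for Ccrl2 Nfkbia, Myo9b and Slc16a3 (0.947, 0.929 and 0.926). Ccr1 and Ccrl2 had an r of 0.775 with each other, and Ccl5 had 0.00266 with Ccr1. The classes share libraries and free RNA, so these values are descriptions.

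In barcodes too shallow to be cells, the 5 genes were above their proximal tubule-like level in each library but for 0 Ccr1 UMIs in library 5. Free-RNA levels ran from 1.75 to 31.5 CPM for Ccl3, 5.25 to 58.2 for Ccl4, 5.25 to 85.7 for Ccl5, 0 to 14.2 for Ccr1 and 0.477 to 38.8 for Ccrl2, and library 2 was the highest for all 5. Library 2 also had the most neutrophil-like cells, 581 of 1305. A contribution of free RNA to the low levels was not tested.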

How the data were processed

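Dissociated kidney of 5 conditions (UIR days 1, 3, 14 and 28 and sham, 1 sample each) was profiled with the 10x 3′ v3.1 kit. The authors deposited raw UMI counts per gene and barcode, made with Cell Ranger 6.0 on mm10 and merged over 5 libraries before cells were called. The range of depth over the libraries is in the report, and p-values between conditions could not be had. The 5 genes, the marker lists and the pathway list were chosen with earlier results of these data known.

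Cells were called in each library in the 2 steps that Cell Ranger uses (10% of the UMIs of the 99th percentile of the top 3000 barcodes, then a comparison of barcodes with at least 500 UMIs to the free RNA of ranks 45000 to 90000, adjusted p of at most 0.01 over 10000 simulations). At most 20000 barcodes a library were compared, the deepest first, and in library 3 the lowest of these had 661 UMIs. Cells with under 200 genes or over 25% of counts on the 13 mitochondrial genes were left out. A cell joined the list with the most of its 8 markers present, with at least 3. Leukocyte classes left out cells with over 0.643% of UMIs on the proximal tubule list, 0.5 times the proximal tubule-like median, and cells in which a kidney list held as many markers; the latter rule was added after values were seen, as the second of 2 gating rules tried. No doublet caller was run and doublets were kept, with an alternative that leaves out cells of 2 leukocyte lineages. Counts were summed over cells to CPM; log2 ratios have exact conditional binomial intervals, and all intervals are 95%. Ratios and ranges by library need at least 20 cells a class, and a level from fewer is given with its number of cells, and a class without a UMI is given the level that 3 UMIs would make. Genes named are the 5, the pathway and marker lists, Clec4e, Siglecf and the 3 nearest profiles of each; goblet and urothelial genes, the split at 10 Ccl5 UMIs and the minimum of 100 UMIs for the gene background were chosen after values were seen. Calling, gates and intervals were tested on simulated data. Python 3.11.15 with numpy 2.4.6, scipy 1.17.1, pandas 2.3.3 and matplotlib 3.10.9 was used. The Cell Ranger version is from the submitters' processing notes. A pathway gene is counted in the list but not reported here.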

Additional observations from a re-analysis of the deposited data

Results flagged for a closer look

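UMIs of all 5 genes were also found in barcodes outside the analysis, the 12140 called barcodes with at least 200 genes and over 25% mitochondrial counts. The level was 4.90 CPM for Ccl3, 9.09 for Ccl4, 11.2 for Ccl5, 1.40 for Ccr1 and 4.13 for Ccrl2, where 3 UMIs would have made 0.0553 CPM. These values lie above the proximal tubule-like levels of kept cells and below those of the leading leukocyte classes. All 5 also lie within the range of free-RNA levels over libraries. That range was 1.75 to 31.5 CPM for Ccl3, 5.25 to 58.2 for Ccl4 and 5.25 to 85.7 for Ccl5. It was 0 to 14.2 CPM for Ccr1 and 0.477 to 38.8 for Ccrl2, so none of the 5 was shown to be above free RNA.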

How the results depend on the processing

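The 11 log2 ratios were recomputed under other settings, and 115 of the recomputed values stayed within the counting interval of the reported one, 56 moved beyond it and 4 turned the direction of a ratio whose interval excluded 0. Ccl3, Ccl4 and Ccr1 by Siglecf, whose intervals included 0, took either sign. In the order Ccl3 then Ccl4, neutrophil-like over mononuclear phagocyte-like cells gave 0.81 and -0.40 with at least 500 genes a cell, 0.82 and -0.36 with 4 of 8 markers, 1.27 and -0.04 with the tubule limit at 0.25 of the median, 0.89 and -0.42 with no such limit, 0.81 and -0.60 after thinning to 1000 UMIs, and 0.65 and -0.68 as a mean over cells. Ccr1 was at 3.00 after thinning and 3.01 as a mean over cells, and Ccrl2 at 2.78 and 2.53 with the tubule limit at 0.25 and without it. For Ccl5, T-like and NK-like cells gave 5.40 without the tubule limit, 5.65 thinned and 5.64 as a mean over cells, and NK-like over T-like 1.28 thinned. Siglecf-positive over Siglecf-negative cells gave 0.35 for Ccl3 and 0.19 for Ccl4 with at least 500 genes, 0.28 for Ccl3 with 4 of 8 markers, -0.20 for Ccl3 and 0.68 for Ccrl2 thinned, and -1.21 for Ccl5 without cells of a second lineage. With 2 alternatives added after the values were seen, leaving out the rule on kidney lists gave 1.66 for Ccl3, 0.30 for Ccl4 (a change of direction), 3.35 for Ccr1, 3.23 for Ccrl2, 6.25 for Ccl5, 0.95 for Ccrl2 by Siglecf and 1.28 for NK-like over T-like, and leaving out cells with T or NK list UMIs gave -1.37 for Ccl5 by Siglecf. The cause of these shifts was not tested.

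Leaving out each library gave -0.54 to 1.48 for Ccl3 (-0.54 without library 2), -1.73 to 0.11 for Ccl4 (0.05 without library 1, 0.11 without library 3, -1.73 without library 2), 2.14 to 3.42 for Ccr1 and 2.05 to 2.91 for Ccrl2 (both lowest without library 2), 5.12 to 5.88 for Ccl5 in T-like and NK-like cells and 1.18 to 1.64 for NK-like over T-like. By Siglecf the ranges were -0.40 to 0.84 for Ccl3, -0.35 to 0.14 for Ccl4, -4.20 to -3.86 for Ccl5, -0.32 to 0.18 for Ccr1 and 0.51 to 0.94 for Ccrl2, and Ccl5 gave no value without library 2. No paired analysis was possible because the labels give the suffixes no replicate numbers, the cells count as 1 sample and no result comes from a test; ratios within libraries are in the report. Intervals cover counting error only, and depth limits levels near the free-RNA levels.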
